A study of Mus musculus with 2 samples.

Results

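Genomic models are transcript models, nearly all unspliced, that long reads of mouse muscle left inside or across known genes. TALON, the program named in the deposited annotation files, gives the class "Genomic" to a model that overlaps a gene but matches none of its annotated splicing. All models with that class and a mouse gene were taken, which gave 11746 of 88614 mouse models (13.3%, Wilson 95% interval 13.0 to 13.5) in replicate 2 and 7354 of 72416 (10.2%, 9.94 to 10.4) in replicate 1. They held 114464 of 1477435 mouse reads (7.75%, 7.70 to 7.79) in replicate 2 and 36466 of 1066170 (3.42%, 3.39 to 3.45) in replicate 1. A further genomic model on a spike-in RNA, with 1 read in each library, was left out. An annotated gene was assigned to 96.5% of the models in replicate 2 and 97.7% in replicate 1, although at least 219 and 256 of these run beyond it. The other 413 and 170 models lay in antisense or intergenic loci that TALON had added.

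The libraries came from the gastrocnemius, a calf muscle, of mice of the strain B6CASTF1/J, hybrids between C57BL/6J and CAST/EiJ. Both animals were male and 36 days old, each library was made from 2 µg of RNA, and no treatment or allele sets them apart, so the design has 1 group. In the labels, replicate 2 is male 04 and replicate 1 is male 03, with a shared donor entry. Values are counts of reads per transcript model as deposited, and positions are on mm10 with the GENCODE M21 annotation. Fast muscle markers (Acta1, Ckm, Myh4, Mylpf, Tnnc2, Tnni2) took 23.2% of the reads of annotated genes in replicate 2 and 22.9% in replicate 1, and the liver genes Alb, Apoa1 and Ttr had 0 reads in both, where a count of 0 allows up to 3. Fibroblast markers held 0.0787% and 0.317%, nerve markers 0.0333% and 0.0929%, slow muscle markers 0.0450% and 0.0219%, adipocyte markers 0.0133% and 0.00637% and blood markers 0.0288% and 0.0217% of these reads in replicates 2 and 1. In bulk tissue, fewer cells of a type and less RNA per cell cannot be told apart. Intervals cover the counting of reads only. The tables give no molecular identifiers, so copies of the same molecule cannot be told from separate molecules.

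A messenger RNA normally ends in a long last exon, most of it untranslated, followed by a poly(A) tail at a site that lies a short way after a hexamer such as AATAAA or ATTAAA. Long-read libraries are usually primed from stretches of A, usually the tail but also A-rich stretches inside a transcript or an unspliced intron. A read that starts at the tail and stops before it reaches the first splice junction carries no junction, and so cannot name its isoform. Reads from unspliced RNA, from retained introns, from RNA that runs past the annotated end and from internal A-rich stretches have no annotated junction chain either, and the genomic class can hold all of these.

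The bases around the 3′ ends show the kinds of end that genomic models had. The sequences are M21 transcript sequences, 5′ to 3′ on the strand of the gene, chosen after their values were seen as the ends with many reads of each kind. The first lines are the last 30 bases up to the end of the 5 models with most reads in replicate 2, all of which stop on an annotated transcript end. Capitals mark AATAAA or ATTAAA where this window holds one. They are chr17:48419231-48419260 (minus strand), chr15:78191114-78191143 (minus), chr19:6910977-6911006 (minus), chr8:123891769-123891798 (minus) and chr1:37898309-37898338 (plus).
Apobec2: atagcaacatcAATAAAggaaataagtggt
Pvalb: ctgtgataaaatacctgaaaagagaaactt
Esrra: agaaaaaaaatatactatggagctcaagta
Acta1: gcATTAAAgccagccattctgttttgctcc
Mrpl30: ttctcATTAAAgtgtatgttcatccagtca

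The next 2 ends lie inside an annotated exon, 1405 and 2103 bases before the nearest annotated end, and have a hexamer 18 and 27 bases before the end. Their 30 bases up to the end are at chr4:21910728-21910757 (plus) and chr6:91464275-91464304 (minus).
Coq3: gaacaaaaggtcAATAAAaatatctaaatc
Chchd4: tcaATTAAAaagaaaccatttctatctgat

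The last lines show the final 10 bases of a model and the 20 bases that follow its end in the annotated exon, with each A after the end in capitals. The first 2 stop before an A-rich stretch (at least 12 A in 20), and Myom2, Rtraf and Polr2l had neither such a stretch nor a hexamer. They are chr6:142362112-142362141 (plus), chr4:123282902-123282931 (plus), chr8:15133311-15133340 (plus), chr14:19811767-19811796 (minus) and chr7:141472654-141472683 (minus).
Pyroxd1: cagactggatgttggAAAgAAAtAAAgAAA
Pabpc4: aaaagaaaagAAAAgAAgAggAAAAAAAAA
Myom2: gggctgcagggcAcAtttctggAAAccctt
Rtraf: gaccacaagaAAgctttAAAAtAttttAtt
Polr2l: gttatagaatgtAtAAgctgccAtcAggtA

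Genomic models were many, mostly small and nearly all unspliced. A model held 9.74 reads on average in replicate 2 and 4.96 in replicate 1, and 49.0% and 54.7% of them rested on a single read. Of the genomic models, 11243 (95.7%) in replicate 2 and 7065 (96.1%) in replicate 1 had 1 exon, against 14.9% and 10.5% of incomplete-match models, which match part of the exon chain of an annotated transcript. Over both libraries they averaged 5.58% ± 3.06 of mouse reads and 11.7% ± 2.19 of mouse models (SD, n = 2). For comparison, annotated models held 62.8% and 67.6% of mouse reads, incomplete matches 15.0% and 10.7%, and antisense models 5.75% and 2.31%, in replicates 2 and 1.

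Genomic reads came almost entirely from protein-coding genes, as did the reads of annotated genes in general. Genomic reads made up a larger share of the reads assigned to antisense and lincRNA genes than of those of protein-coding genes. Protein-coding genes gave 94.1% of genomic reads in replicate 2 and 93.7% in replicate 1. Of the reads of annotated genes in any class, they held 1336110 of 1374068 in replicate 2 and 1015497 of 1036455 in replicate 1. Within protein-coding genes, 8.06% of reads in replicate 2 (8.02 to 8.11) and 3.36% in replicate 1 (3.33 to 3.40) were genomic. In genes of the type antisense the shares were 54.5% (53.1 to 56.0) and 41.2% (38.9 to 43.4), in lincRNA genes 34.4% (33.2 to 35.7) and 23.6% (22.1 to 25.2). Processed pseudogenes, which have no introns, were at 0.813% (0.689 to 0.960) and 0.610% (0.484 to 0.767). An unspliced read of a 1-exon gene can match its annotated transcript, so low shares there follow at least in part from the class rule. The order antisense, lincRNA, protein coding, processed pseudogene held in both libraries with intervals that do not overlap. Genes of the type antisense lie opposite other genes, and the sources used here do not say how strand was assigned. Their reads therefore cannot be told apart with certainty from reads of the opposite gene.

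The last exon was the main place. Place was read against the exons of all annotated transcripts of the gene, and 6928 models (59.0%, 58.1 to 59.9) in replicate 2 and 4644 (63.1%, 62.0 to 64.2) in replicate 1 lay inside a last exon. They held 78.1% of genomic reads in replicate 2 and 72.3% in replicate 1, a mean of 75.2% ± 4.11 (SD, n = 2). A last-exon model held 12.9 and 5.68 reads, and an intron model 3.38 and 2.31 reads. Models wholly in introns were the next group with 2651 (22.6%, 21.8 to 23.3) in replicate 2 and 1179 (16.0%, 15.2 to 16.9) in replicate 1, but they held 7.83% and 7.48% of genomic reads. Models that join exon and intron numbered 968 (8.24%) and 736 (10.01%) and held 8.01% and 10.5% of genomic reads. Models with several exons were 379 and 243, and models over at least 90% of the gene span 32 and 38, also where they left the gene. Among the rest, 219 and 256 run beyond the gene, and 156 and 88 lay in another exon.

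**Figure D1:**
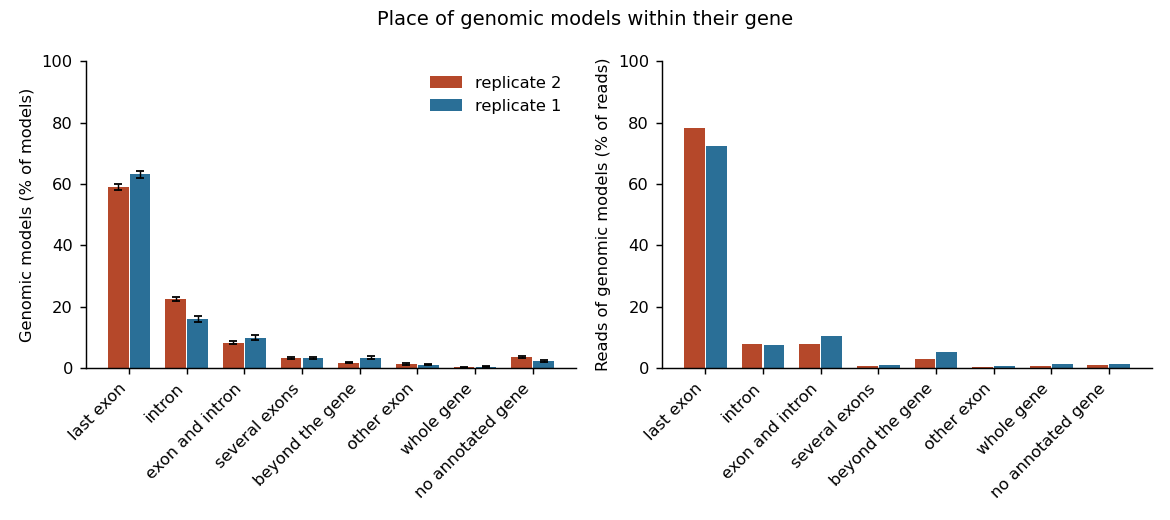
Share of genomic models (left, with Wilson 95% intervals) and of their reads (right) in each place of the gene, in percent, for replicate 2 (red) and replicate 1 (blue). The last exon holds 59.0% and 63.1% of the models and 78.1% and 72.3% of the reads, and introns hold 22.6% and 16.0% of the models but 7.83% and 7.48% of the reads.

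Most genomic reads were in models that end where annotated transcripts end. Among 1-exon models of annotated genes, 51.1% of models with 75.4% of reads in replicate 2, and 57.5% with 72.1% in replicate 1, had their 3′ end exactly on an annotated transcript end. Of the models whose 3′ end lay within 100 bases of such an end, 98.0% and 98.1% were on it to the base. The 5′ end lay on some annotated exon boundary in 40.4% and 45.2% of them, and on the start of a last exon in 4.03% and 4.22%, against 89.5% and 89.7% of 1-exon incomplete-match models, which also lie in the last exon in 90.4% and 92.6% of cases. Genomic models of the last exon whose nearest annotated end lay further downstream numbered 1004 (14.5%) in replicate 2 and 594 (12.8%) in replicate 1, at a median of 808 and 764.5 bases before that end. The tables hold the listed ends of models and not the ends of single reads.

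The tables give the listed length of a model and not the lengths of its reads. The median listed length was 419 bases in replicate 2 (quartiles 177 and 947) and 647 in replicate 1 (231 and 1668), with a range of 1 to 8706 and 1 to 10909 bases. Models under 50 bases were 1056 (8.99%) and 587 (7.98%), and held 27.4% and 17.3% of genomic reads. Of these, 664 models in replicate 2 and 344 in replicate 1 were listed at 1 base, with 18986 reads (16.6% of genomic reads) and 3331 reads (9.13%). Incomplete-match models had 0 models of 1 base in both libraries and 10 and 5 1-exon models under 50 bases. In annotated genes, 68.8% of the 1-base models with 93.7% of their reads in replicate 2, and 71.6% with 85.9% in replicate 1, sat on an annotated transcript end. At the same position, 108 of these 1-base models were in both libraries. The longest were a last-exon model of Ahnak, a giant scaffold protein gene with a very long exon (10909 bases, 18 reads, replicate 1), and an intron model of the splicing factor gene Sfswap (8706 bases, 1 read, replicate 2), both named after their values were seen.

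**Figure D2:**
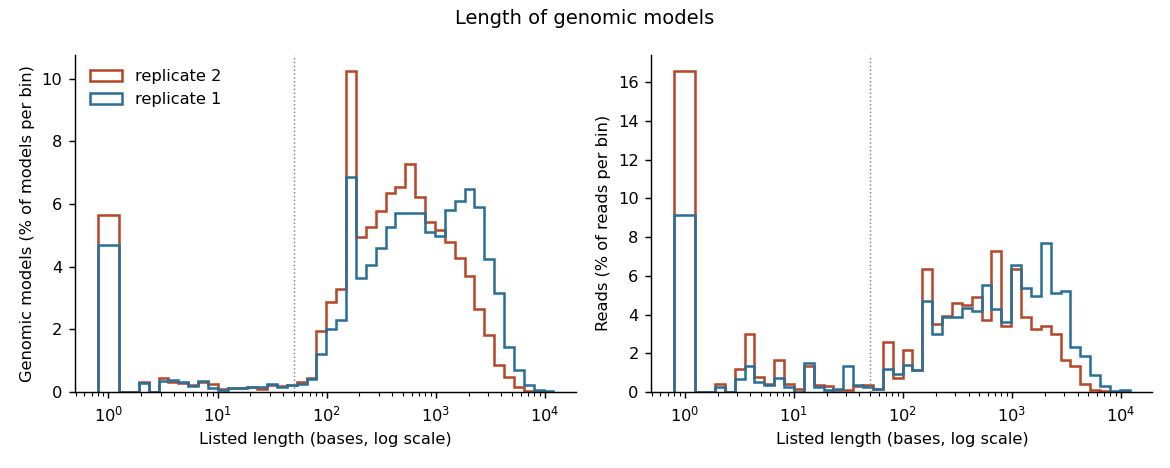
Listed length of genomic models on a log axis in bases, as percent of models (left) and percent of reads (right) per bin, for replicate 2 (red) and replicate 1 (blue), with a dotted line at 50 bases. The bin at 1 base holds 16.6% of the reads in replicate 2 and 9.13% in replicate 1, and models above 1000 bases take a larger share in replicate 1.

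Length differed with place. Intron models had a median of 202 bases in replicate 2 and 337 in replicate 1, last-exon models 420 and 541.5, models over exon and intron 727 and 1555, and models beyond the gene 1740 and 2156. A narrow peak from 150 up to 200 bases held 34.5% of intron models (915) in replicate 2 and 31.1% (367) in replicate 1, against 6.19% and 4.35% of last-exon models. The same range held 38.02% and 37.6% of 1-exon intergenic models and 11.9% and 9.64% of 1-exon antisense models. Annotated models were shorter in replicate 2 as well, with a median over reads of 1249 bases against 1564 in replicate 1, and the part of this in the length of genomic models was not tested.

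A few genes held much of the class. The 10 genes with most genomic reads held 18.7% of them in replicate 2 and 11.1% in replicate 1, and the top 100 held 47.0% and 37.6%. Apobec2 (ENSMUSG00000040694.4, chromosome 17, 48419231 to 48432930), the muscle member of a family of cytidine deaminases, came first with 5278 of 5734 reads in replicate 2 (92.0%, 91.3 to 92.7) and 921 of 1305 in replicate 1 (70.6%, 68.0 to 73.0). Nearly all of these, 5276 and 921, were in 1 model listed at the final base of the gene. Pvalb (chromosome 15, 78191114 to 78206400), the calcium buffer of fast fibres, had 3118 of 8548 reads in replicate 2 (36.5%) and 376 of 3821 in replicate 1 (9.84%), in a 4-base model at the end of the gene. Esrra (ENSMUSG00000024955.14, chromosome 19, 6910977 to 6921813), a nuclear receptor that drives mitochondrial genes, had 2593 of 2615 reads (99.2%) and 340 of 374 (90.9%) in the same 73-base model at its 3′ end. The 30 bases up to these 3 ends are among the sequences given above.

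Mrpl30, a protein of the large mitochondrial ribosome subunit, had 1485 of 1762 reads (84.3%) in replicate 2 and 255 of 356 (71.6%) in replicate 1 in a 174-base model that stops on an annotated end. Ndrg2, a differentiation-related gene of the NDRG family, had 1326 of 2786 reads (47.6%) and 260 of 1971 (13.2%) in a 13-base model. Ybx3, a cold-shock RNA-binding protein gene, had 1038 of 2939 reads (35.3%) and 273 of 2051 (13.3%) in a 236-base model. In these genes the same model held the genomic reads of both libraries, and the share was higher in replicate 2. Acta1, skeletal actin, was unlike them, with 2662 of 82734 reads (3.22%) at its final base in replicate 2 and 0 of 80662 in replicate 1, where 1231 reads were in 1-exon incomplete matches instead. Other sarcomere genes had the reverse. Tnnc2, fast troponin C, had 0 genomic reads in replicate 2 and 434 in replicate 1 (1.21%), with 832 and 0 reads in 1-exon incomplete matches. Myl1, a fast essential light chain, had 17 and 377 genomic reads and 805 and 1 in 1-exon incomplete matches.

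**Figure D3:**
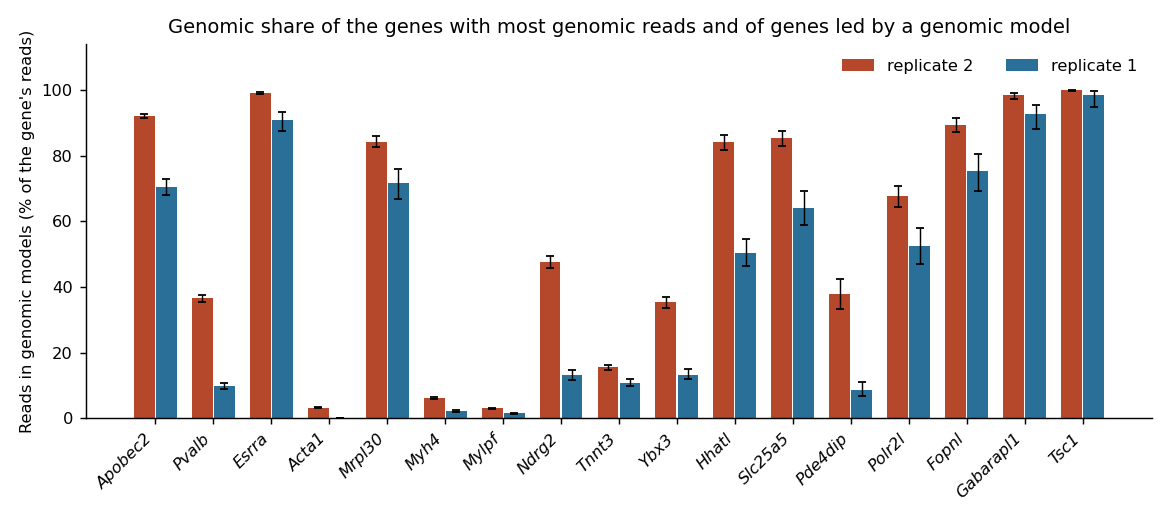
Share of a gene's reads that lie in genomic models, in percent with Wilson 95% intervals, for the 10 genes with most genomic reads and the genes with most reads that a genomic model leads in both libraries, in replicate 2 (red, left of each pair) and replicate 1 (blue). Esrra, Gabarapl1 and Tsc1 are above 90% in both libraries, while Acta1, Myh4 and Mylpf are under 7% in both.

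The models over exon and intron with most reads were unspliced stretches of sarcomere genes. Mylpf, the fast regulatory light chain, had a 392-base model (chromosome 7, 127213896 to 127214287) with 1318 reads in replicate 2 and 377 in replicate 1, which keeps 1 whole intron of 107 bases and stops on an annotated end. Tnnt3, fast troponin T, had a 2340-base model with 1009 reads in replicate 2 and a 3382-base model with 323 reads in replicate 1, and each keeps 2 introns of 1833 bases in all. Tnni2, fast troponin I, had a 738-base model with 2 kept introns of 178 bases in all and 1152 reads in replicate 2, and no genomic read in replicate 1, where 310 reads were in 1-exon incomplete matches. Myh4, the type 2B myosin, had a 1058-base model with 1414 and 310 reads that holds 799 intronic bases but no whole intron. The share of the gene's reads was small for Mylpf (3.08% and 1.58%) and Myh4 (6.23% and 2.13%), and larger for Tnnt3 (15.5% and 10.9%).

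Among all models over exon and intron, 247 of 968 (25.5%) in replicate 2 and 286 of 736 (38.9%) in replicate 1 kept at least 1 whole intron, and these held 55.0% and 58.6% of their reads. The top 5 models held 57.1% and 37.1% of their reads. Enzyme genes of glycogen and sugar use were among the others with many reads, named after their values were seen: the glycogen phosphorylase gene Pygm had 253 reads in a 716-base model in replicate 2 and 80 in a 737-base model in replicate 1. Eno3, muscle enolase, had a 3368-base model with 6 kept introns and 163 reads in replicate 2. Tmem38a, a cation channel of the sarcoplasmic reticulum, had 228 reads in a 4250-base model in replicate 1, and in replicate 2 its 2 genomic reads stood beside 595 reads in 1-exon incomplete matches.

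Whole-gene models were rare. Tcap (ENSMUSG00000007877.2), telethonin of the Z-disc, had an unspliced model from its first to its last base (chromosome 11, 98383811 to 98384953, 1143 bases) with 700 reads in replicate 2 and 182 in replicate 1. Genomic reads were 7.22% of 9707 Tcap reads and 4.24% of 4296. Myadml2, a gene of the MYADM family, had a 2128-base model with 66 and 117 reads, the gene's main model in both libraries. Mfsd5 and AI837181 had 31 reads each in replicate 1, and a 5307-base model of Eno3 had 21. These genes were named after their values were seen.

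Models beyond the gene mostly passed the 3′ end. Of them, 159 of 219 (72.6%) in replicate 2 and 199 of 256 (77.7%) in replicate 1 ran past it, by a median of 890 and 1107 bases and at most 4207 and 6090. Cox7a1, the muscle subunit of cytochrome c oxidase, had 520 of 2001 reads in a model that runs 3974 bases past the end in replicate 2, and 0 of 566 genomic reads in replicate 1, with 103 in 1-exon incomplete matches. This model reaches base 30190052 of chromosome 7 and so enters the annotated span of Capns1, which starts at 30186936. How strand was assigned is not given in the sources used here, so reads of the 2 genes cannot be told apart with certainty. Ankrd23, a titin-binding ankyrin repeat gene, had models with 481 and 150 reads that run 828 and 1241 bases past the end. The antisense gene Gm20659 had all its reads, 328 and 104, in models that end 1091 bases past it in both libraries. Hhatl, a muscle acyltransferase-like gene, was listed differently in the 2 tables, with 829 reads in a 7-base model inside the gene in replicate 2, and 284 reads in a 568-base model from the same start to 561 bases past the end in replicate 1. Of these genes only Hhatl was named by the rule, and the others after their values were seen.

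Intron models were many and thin. In replicate 2, 125 of 2651 had at least 10 reads and held 52.8% of intron reads, and in replicate 1 it was 37 of 1179 with 36.1%. The intron model with most reads in replicate 2, 545, was in Cfap77, a cilium gene, which had 0 reads of any kind in replicate 1. It begins at the end of the processed pseudogene Gm13394, which had 48 and 307 reads and no genomic read. The intron model of the lincRNA gene Prr33 (chromosome 7, 142502740 to 142504065, minus strand, 1326 bases) had 366 reads in replicate 2 and 198 in replicate 1. It lies opposite Tnnt3 on the plus strand, and the sources used here do not say how strand was assigned, so reads of the 2 genes cannot be told apart with certainty. Gm45692 had intron models with 368 and 57 reads that overlap Rnf170, a ubiquitin ligase gene, on the same strand. Kidins220, a membrane scaffold gene, had 169 reads in a 179-base intron model and 39 in a 178-base model at the same start. These genes were named after their values were seen. Most models in 1 gene were in Gm20388, with 63 and 25, a predicted gene annotated over 4434882 bases, followed by Fgfr2 with 30 and 13.

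Genomic models of several exons were few, and in each library the model with most reads lay around a snoRNA gene. Snora57 had a 2-exon model of 108 bases with 55 reads in replicate 2 and of 104 bases with 15 in replicate 1, each with 1 exon on either side of the snoRNA. Snord104 had a 2-exon model with 49 reads in replicate 2, level with a model of Synpo2, and with 30 in replicate 1, the most there. The lincRNA gene 2310065F04Rik had a 2-exon model with 28 and 23 reads. Both snoRNAs guide chemical modification of RNA and lie in introns of host genes, and the exons of these models lie outside the snoRNAs themselves. These genes were named after their values were seen.

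A gene was called led by a genomic model where the model with most of its reads was genomic, among genes with at least 10 reads. In replicate 2, 1186 of 6294 genes (18.8%, 17.9 to 19.8) were led by one and in replicate 1 397 of 6234 (6.37%, 5.79 to 7.00). In both libraries 313 of 5437 genes (5.76%) were led, 567 more in replicate 2 alone and 35 more in replicate 1 alone. The led genes held 58.0% of genomic reads in replicate 2 and 32.5% in replicate 1. They were not high genes: the 313 had a median of 44 and 24 reads, against 41 and 36 over all 5437. The leading model lay in the last exon in 235 and 226 of the 313 genes, in an intron in 46 and 46, over exon and intron in 16 and 18, and beyond the gene in 10 and 14. Its median length was 498 bases in replicate 2 and 866 in replicate 1.

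By the number of reads, Apobec2, Esrra and Mrpl30 headed the led genes and were followed by 7 others. Slc25a5, the adenine nucleotide translocator of most tissues, had 820 of 961 reads (85.3%) in replicate 2 and 207 of 323 (64.1%) in replicate 1, and processed copies of it elsewhere in the genome make the split of its reads uncertain. Gabarapl1, an autophagy gene, had 829 of 843 reads (98.3%) and 189 of 204 (92.6%) in the same 1110-base model. Tsc1, an inhibitor of the mTORC1 kinase, had all 827 reads in replicate 2 and 133 of 135 in replicate 1 (98.5%) in 3′ models of 1704 and 1168 bases. Polr2l, a small subunit shared by RNA polymerases, had 541 of 800 reads (67.6%) and 162 of 309 (52.4%), in models that stop 814 and 1248 bases before the annotated end. Fopnl, a centrosome and cilium gene, had 771 of 862 (89.4%) and 167 of 222 (75.2%) in a 199-base model. Pde4dip, myomegalin, was led at a low share in replicate 1, with 159 of 421 reads (37.8%) and 61 of 700 (8.71%), since its other reads were spread over many models.

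Of the 313 genes, 292 were protein coding, 10 of the type antisense, 5 lincRNAs, 3 processed transcripts, 2 snoRNAs and 1 a pseudogene. That is 5.58% of the protein-coding genes with enough reads, 10 of 31 antisense genes (32.3%) and 5 of 32 lincRNA genes (15.6%). Some of the noncoding genes had no other read, such as Gm28376 (128 and 30 reads), Gm37401 (105 and 24) and Gm16126 (100 and 27), named after their values were seen. The limit on strand given above holds for the antisense genes, and Gm28376 overlaps the span of Jph1.

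Genes with long last exons had larger genomic shares. By the longest annotated last exon, the genomic share of reads in replicate 2 was 4.18% for genes under 500 bases, 6.97% from 500 up to 1000, 8.02% from 1000 up to 2000, 22.5% from 2000 up to 4000 and 29.4% at 4000 or more. In replicate 1 the same bins were at 1.20%, 2.98%, 3.31%, 9.22% and 16.0%. The share of genes led by a genomic model went with it, 8.96%, 10.98%, 17.7%, 26.2% and 39.5% in replicate 2, and 3.03%, 3.69%, 4.05%, 7.998% and 19.6% in replicate 1. Genes whose exons merge into 1 block had a share of 0.665% and 0.760%, which follows at least in part from the class rule. Their unspliced reads can match an annotated transcript, and 1312 and 1091 annotated models had 1 exon. With 2 to 5 blocks the share was 8.96% and 5.55%, with 6 to 20 it was 7.52% and 3.19%, and with over 20 it was 14.4% and 2.84%. Highly expressed genes were mostly low: 75 genes had at least 1000 reads in each library, their median share was 0.0737% and 0.0417%, and 6 of them, including Apobec2, Ndrg2, Srl, Tnnt3 and Ybx3, were above 10% in both.

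The muscle gene lists differed in how much of them was genomic. Over all 3691 genes that had 20 reads or more in both libraries, the median share was 3.33% in replicate 2 and 1.30% in replicate 1, 46.3% of genes had genomic reads in both, and 15.7% had a share of at least 10% in both. The 4 giant genes with enough reads all had genomic reads in both libraries, with medians of 26.4% and 12.5%. They differed widely: Ttn, titin, had the most, with 249 of 435 reads (57.2%) in replicate 2 and 78 of 263 (29.7%) in replicate 1. Ryr1 had the least, with 14 of 644 (2.17%) and 4 of 752 (0.532%), under the medians of all genes. The 13 fast sarcomere genes had medians of 3.22% and 1.21%, with Tnnt3 alone at 10% or more in both. Of the 10 calcium handling genes, 8 had genomic reads in both, with medians of 1.10% and 0.847%, and Srl, sarcalumenin, reached 524 of 1388 reads (37.8%) and 288 of 2817 (10.2%). Of the 7 fat and matrix genes, 3 had genomic reads in both, with low medians of 0.864% and 0.0643%, and the highest, Sparc, a collagen-binding matrix protein, had 179 of 592 (30.2%) and 113 of 948 (11.9%).

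The remaining lists had lower medians. The 11 glycolysis genes had medians of 0.198% and 0.0125%, and 4 had genomic reads in both. The 83 genes with names that start with Rpl or Rps had a median of 0 in both libraries, with 12 having genomic reads in both. The 11 mitochondrially encoded genes had 1 genomic read in each library, of 18178 and 2890 reads. These genes have no introns, so the limit given for genes of 1 block holds for them. The 3 nuclear lncRNAs with enough reads had a median of 0 in both.

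Genomic shares were compared per gene between the libraries with a two-sided Fisher exact test, Benjamini-Hochberg adjusted over all 3691 genes, and called at an adjusted p under 0.05 and a difference of at least 10 percentage points. It called 633 genes (17.1%) with a higher share in replicate 2 and 59 (1.6%) with a higher share in replicate 1, 18.7% in all. The test compares these libraries, with 1 on each side, and no replicate check stands behind a call. The median difference over all genes was 1.15 points (replicate 2 minus replicate 1), and the median of the genes called higher in replicate 2 was 30.02 points. Apobec2 was called higher in replicate 2 by 21.5 points, Pvalb by 26.6 points and Mrpl30 by 12.7 points. These genes were named for their genomic reads, most of which were in replicate 2, so their direction is not independent of the choice. Esrra differed by 8.25 points and Gabarapl1 by 5.69, under the 10 points a call needs, and Tsc1 by 1.48 points (adjusted p = 0.0791, Fisher exact test).

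The largest differences in favour of replicate 2 were in genes with 0 or few genomic reads in replicate 1. Scn4b, a sodium channel beta subunit gene, had 42 of 43 reads in replicate 2 and 0 of 32 in replicate 1 (97.7 points, adjusted p = 9.52e-19, Fisher exact test). Klf9, a transcription factor gene induced by glucocorticoids, had 184 of 196 and 0 of 211 (93.9 points). Pdpr (79 of 82 and 0 of 35), a regulator of pyruvate dehydrogenase phosphatase, Fam131a (380 of 409 and 0 of 115), Pcx (165 of 182 and 0 of 71), pyruvate carboxylase, Rxra (47 of 54 and 0 of 49), a retinoid receptor, Trak2 (27 of 32 and 0 of 32), a mitochondrial transport adaptor, and Immt (30 of 38 and 0 of 23), of the mitochondrial inner membrane, followed. Map4, a microtubule-associated protein gene, had 228 of 259 and 8 of 111. In each of these genes replicate 1 had reads in 1-exon incomplete matches, 21 for Scn4b, 169 for Klf9 and between 13 and 79 for the others, and replicate 2 had 0, or 2 for Klf9.

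The largest differences in favour of replicate 1 had the reverse. Ywhag, a 14-3-3 protein gene, had 2 of 88 genomic reads in replicate 2 and 47 of 58 in replicate 1 (-78.8 points, adjusted p = 2.44e-23, Fisher exact test), and Jph2, which holds the membranes of the triad together, 1 of 138 and 63 of 89 (-70.1 points). Replicate 2 had 82 reads of Ywhag and 126 of Jph2 in 1-exon incomplete matches, against 0 and 0 in replicate 1. Twnk (1 of 105 and 15 of 25), the mitochondrial DNA helicase gene, Smim8 (0 of 89 and 17 of 30), Ctnnbl1 (0 of 53 and 13 of 24), Vac14 (0 of 148 and 20 of 37), a scaffold of lipid kinase PIKfyve, Ubr3 (4 of 63 and 20 of 35), a ubiquitin ligase gene, Ppp1r3c (4 of 291 and 216 of 428), which targets a phosphatase to glycogen, Mgll (0 of 29 and 12 of 25), monoglyceride lipase, and Aqp1 (0 of 83 and 27 of 61), a water channel gene, filled the list. Of all 59 genes called higher in replicate 1, 56 had reads in 1-exon incomplete matches in replicate 2, as did 37.7% of all 3691 genes.

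For some genes the 1-exon reads were genomic in 1 library and incomplete matches in the other. Among genes with at least 20 genomic reads in replicate 2 and 0 in replicate 1, 67 of 69 (97.1%) had 1-exon incomplete-match reads in replicate 1, against 28.4% of all 3691 genes. In the other direction it was 26 of 26, against 37.7% in replicate 2. These genes were picked by their genomic reads, whereas the 3691 were not. With 1-exon genomic and 1-exon incomplete-match reads counted together, a way of counting added after the classes were seen to differ, the test called 840 genes for replicate 2 and 6 for replicate 1, and 3 of the 59 and 558 of the 633 were still called. The direction turned for 9 of the 10 named genes higher in replicate 1: Jph2 was then 21.2 points higher in replicate 2 (adjusted p = 0.000316) and Ywhag 13.3 points (adjusted p = 0.0562, Fisher exact test). Klf9 kept 14.8 of its 93.9 points and Immt 22.4 (adjusted p = 0.216, Fisher exact test). Few identical spans changed class: 1087 1-exon spans with the same start and end were genomic in both tables and 739 were incomplete in both. Only 17 were genomic in replicate 2 and incomplete in replicate 1, and 8 were the reverse.

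**Figure D4:**
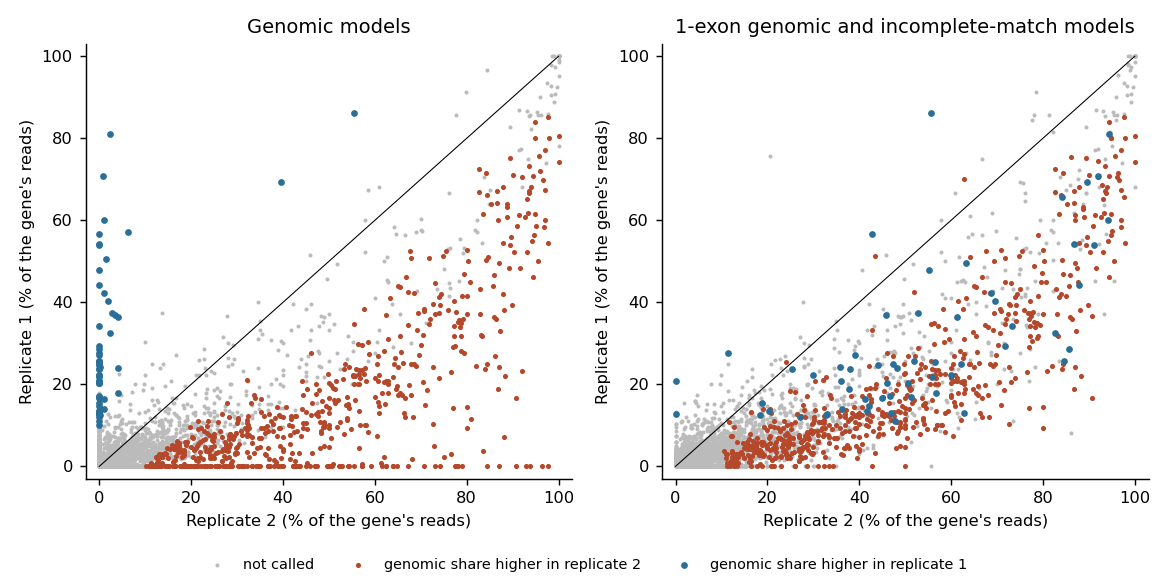
Share of each gene's reads in genomic models (left) and in 1-exon genomic and incomplete-match models together (right), in percent, with replicate 2 on the x axis and replicate 1 on the y axis, for the 3691 genes that had 20 reads or more in each; the line marks equal shares. The 633 genes called higher in replicate 2 (red) and the 59 called higher in replicate 1 (blue) keep their colours in both panels, and most blue points cross to below the line on the right.

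In the lists, as over all genes, most calls were higher in replicate 2. The counts stand beside 17.1% of all genes called higher in replicate 2 and 1.6% in replicate 1. Of the 4 giant genes, 3 were called higher in replicate 2, including Ttn (27.6 points) and Neb (10.2, nebulin). Of the 10 calcium handling genes, Jph1 (60.5 points), Srl (27.5) and Pvalb were higher in replicate 2 and Jph2 in replicate 1. Of the 13 fast sarcomere genes, Myh2 (19.1 points), the type 2A myosin, and Tnni2 (13.5) were higher in replicate 2, of the 7 fat and matrix genes Col1a1 (22.4) and Sparc (18.3), and of the 11 glycolysis genes Pygm (10.6). The 2 called members of the Rpl and Rps list, Rps6ka2 and Rps6kb2, are kinases that the name rule takes in and not ribosomal proteins. No mitochondrially encoded gene and no nuclear lncRNA was called. The fibroblast and nerve markers, the read depth and the length of annotated models also differed between the libraries, and their part in these calls was not tested.

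The 3′ ends inside an exon were read in the annotated transcript sequences. Ends with 50 exonic bases before them and 20 after them were used, 1569 models in replicate 2 and 935 in replicate 1. An A-rich stretch (at least 12 A in the 20 bases after the end) followed 11.3% of them (9.87 to 13.0) in replicate 2 and 12.9% (10.9 to 15.2) in replicate 1. The background was 1.55% of 10173564 positions, taken over each annotated last exon of the 1730 genes concerned. Bases shared by overlapping last exons count more than once in it. The ends also include 112 and 82 outside last exons, and ends in last exons alone were at 10.8% and 11.6%. The hexamer AATAAA or ATTAAA, searched on the strand of the gene in the 50 bases up to the end, was there for 45.7% (43.2 to 48.2) and 52.4% (49.2 to 55.6), against 5.23% of all positions. Neither was found for 44.9% and 36.8% of ends. The 209 and 130 1-exon incomplete matches with such ends had a hexamer in 59.8% and 58.5% of cases. An A-rich stretch followed 5.74% and 13.1% of them, so these traits are not particular to genomic models. Of ends on an annotated transcript end, 81.7% and 84.0% of genomic models had a hexamer, and 80.2% and 81.8% of 1-exon incomplete matches, against 36.6% of all 68867 annotated transcript ends of genes with reads. A match to these letters is a description and names no site.

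**Figure D5:**
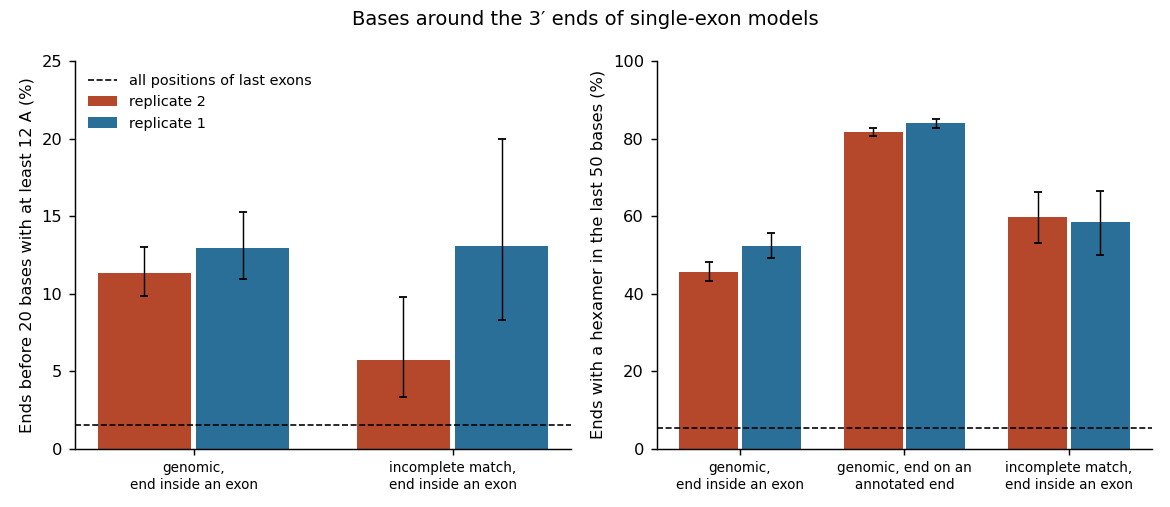
Percent of 1-exon models whose 3′ end comes before 20 bases with at least 12 A (left) or has AATAAA or ATTAAA in its last 50 bases (right), with Wilson 95% intervals, for replicate 2 (red) and replicate 1 (blue). Dashed lines give the share of positions over each annotated last exon, where overlapping last exons count more than once. Genomic ends inside an exon stand at 11.3% and 12.9% for A-rich stretches and at 45.7% and 52.4% for the hexamer, both above the dashed lines at 1.55% and 5.23%. Incomplete-match ends inside an exon stand at 5.74% and 13.1%, and at 59.8% and 58.5%.

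The ends inside an exon shown in letters differed in how many reads they held. The Coq3 end, of a ubiquinone synthesis enzyme, had 355 reads in replicate 2 and 0 at that base in replicate 1, and the Chchd4 end, of a mitochondrial import protein, 224 and 52. Over all genomic models, Coq3 had 356 of 405 reads (87.9%) in replicate 2 and 64 of 94 (68.1%) in replicate 1. The A-rich ends of Pyroxd1 (148 and 32 reads), an oxidoreductase gene linked to muscle, and Pabpc4 (0 and 48), a poly(A)-binding protein, had fewer reads. Of these ends Myom2, a myosin-binding protein of the M-band, had the most, 961 and 181 reads at 221 bases before the annotated end, and Rtraf, an RNA transcription and transport factor, had 540 and 100 at 436 bases. Of the 2328 ends inside an exon, 176 were used to the base in both libraries.

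Genomic models with more reads were found in both libraries more often. By at least 50% reciprocal overlap with a genomic model of the same gene, 2835 of 11333 models (25.02%, 24.2 to 25.8) in replicate 2 were found again in replicate 1 and 2821 of 7184 (39.3%, 38.1 to 40.4) in replicate 1 were found again in replicate 2. These held 57.8% of reads in both. Among models with 1 read the shares were 10.7% and 28.6%, and with at least 100 reads 61.0% and 70.5%. Last-exon models were found again in 29.0% and 43.2% of cases and intron models in 16.5% and 37.1%. By gene, 4336 annotated genes had genomic reads in both libraries, 55.0% of the 7890 in replicate 2 and 75.2% of the 5764 in replicate 1.

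Few genomic models reached another gene on their own strand. In replicate 2, 4.21% of models (3.86 to 4.58) with 3.65% of reads overlapped or adjoined another annotated gene on the same strand, and in replicate 1 4.28% (3.84 to 4.77) with 3.36%. On either strand it was 29.0% and 26.8%, and for models beyond the gene 66.2% and 61.7%. Models in introns did so on the same strand in 6.26% and 8.74% of cases, and models with several exons in 12.1% and 13.99%.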

How the data were processed

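Long-read RNA sequencing of 2 gastrocnemius libraries of 1 group gave the tables used here. The deposited values are raw counts of reads per transcript model, 1 table per library, not pooled and with only models of at least 1 read listed. Per the file headers, reads were on mm10 with the GENCODE M21 annotation, and models without annotation came from TALON, which the deposited annotation files name. The sources used here do not give the aligner or the TALON version. Whole numbers with different totals were checked, as was that every listed length equals the sum of exon lengths. The depth was 1514119 reads in replicate 2 and 1106945 in replicate 1, of which 1477435 and 1066170 were from the mouse.

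Places, ends, overlaps and shares were computed with Python 3.11.15, pandas 2.3.3 and numpy 2.4.6, and figures with matplotlib 3.10.9. Shares of 1 library carry Wilson 95% intervals. Gene shares were compared with two-sided Fisher exact tests (scipy 1.17.1), Benjamini-Hochberg adjusted over all genes that had 20 reads or more in both libraries, a step tested on simulated data. P-values cover only the counting of reads within these 2 libraries, since 1 library stands on each side. The labels also give both the same donor entry. Bases near 3′ ends came from M21 transcript sequences. Sequence after ends outside annotated exons was not analysed here.

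Members, gene lists and tests were chosen with earlier results of these data known. Named genes were the 10 with most genomic reads, the 10 with most reads among those led in both libraries, the 10 called with the largest difference each way, the genes of the 10 models with most reads in each library, and list members with at least 10% of reads genomic in both. Others were named after their values were seen. A few genes that these rules name are not reported here. Alternatives covered short and single-read models, the exons used, the overlap, the read minimum, strand, and the class of 1-exon models.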

Additional observations from a re-analysis of the deposited data

How the results depend on the processing

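Of 48 alternatives to 13 results, apart from leaving out a library, 28 changed the value by less than its limit and 20 by more. The limit was the SD over the 2 libraries, or a fixed fold for counts of genes. Values on which the libraries differ thus have wide limits, and the counts do not measure robustness. With 1-exon incomplete matches added the share of reads was 8.61%, against 5.58%, which is inside its limit of 3.06 points. Leaving out each library in turn gave 3.42% to 7.75% of reads and 10.2% to 13.3% of models in the genomic class, 59.0% to 63.1% of models and 72.3% to 78.1% of reads in last exons, 16.0% to 22.6% and 7.48% to 7.83% in introns, a median length of 419 to 647 bases, 397 to 1186 led genes and 11.3% to 12.9% A-rich ends. The share of models was 14.6% of those in annotated genes and 14.1% with 1-exon incomplete matches added. Without single-read models the last exon held 73.9% of models, and introns 11.7% of models and 6.15% of reads. Against the longest transcript alone the last exon held 51.9% of models and 60.6% of reads, and introns 27.1% and 16.7%. Allowing up to 10 exonic bases put 8.95% of reads in introns. The mean share of models found in both libraries, 32.1%, was 21.6% at 90% reciprocal overlap and 53.3% at any overlap. With at least 50 reads, 72 genes were led in both libraries. On either strand 27.9% of models touched another gene. The Fisher exact test at 50 reads or more called 355 genes higher in replicate 2 and 34 in replicate 1, at 20 points or more 39 in replicate 1, and with 1-exon incomplete matches added 6 in replicate 1. A-rich ends were 14.9% with 10 bases and at least 7 A, and 8.67% of reads.

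Of the 20 genes named by the test, 9 reversed with 1-exon incomplete matches added, which moves reads between classes by construction. In points higher in replicate 2 they were Ywhag 13.3, Jph2 21.2, Twnk 34.3, Ctnnbl1 32.6, Vac14 37.2, Ubr3 18.4, Ppp1r3c 13.7, Mgll 7.17 and Aqp1 43.7. Of these, Ywhag, Ubr3 and Mgll did not meet the rule for a call in that direction. For the other changes the cause was not tested. No paired analysis was possible because the design has 1 group. The planned check of bases after 3′ ends in a genome was not run, and annotated transcript sequences were used in its place. Single-read models, 49.0% of genomic models in replicate 2 and 54.7% in replicate 1, have no other read behind them.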

Other observations

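Genomic models outside annotated genes were 342 in antisense loci and 71 in intergenic loci in replicate 2, and 138 and 32 in replicate 1. They held 1165 and 194 reads in replicate 2, and 393 and 61 in replicate 1. The median length of all of them was 712 bases in replicate 2 and 1207 in replicate 1.

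Some genomic models began at the last base of a pseudogene on the same strand, or within 1 base of it. Where that pseudogene was annotated as processed or unprocessed, they were 20 models with 1228 reads in replicate 2 and 10 models with 135 reads in replicate 1. In replicate 2 most of these reads were in 3 models, in an intron of Cfap77 at Gm13394 (545 reads), in the last exon of Usp50 at Gm10774 (425) and in an intron of AC154200.1 at Oaz1-ps (148). In replicate 1 Cfap77 had 0 genomic reads and Usp50 had 2. An intron model of Lyrm4, an iron-sulfur cluster assembly gene, began in this way at Tmed10-ps, with 20 reads in replicate 2 and 17 in replicate 1. How reads are split between such a copy and its parent gene is uncertain.

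Models of 1 exon that lay in an exon other than the last were led by Pabpc4, with 107 reads at 21 bases in replicate 2 and 48 reads at 87 bases in replicate 1 from the same start. The model in replicate 1 is the one that stops before the A-rich stretch shown above.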
